A study of Mus musculus with 2 samples.

Results

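The genes described here are 10 genes of antigen presentation by major histocompatibility complex (MHC) molecules: Cd74, H2-Aa, H2-Ab1, H2-Eb1 and Ciita of the class II pathway, and B2m, H2-K1, H2-D1, Tap1 and Psmb8 of the class I pathway. They were taken by name from the 53380 features counted, and 9 of the 10 reached a mean of 10 CPM (UMIs of a gene per 1000000 UMIs of the same cells) over the libraries, as did 8269 genes in all. RNA of single cells was counted as UMIs, unique molecular identifiers that each stand for a captured molecule, in 2 libraries from sciatic nerves of adult mice that carry Cdh5(PAC)-CreERT2, a tamoxifen-inducible Cre expressed from an endothelial promoter, and R26-TomatoLSL, a tdTomato reporter that is silent until Cre removes a stop cassette. Dissociated cells positive for tdTomato and negative for CD45, the surface protein of white blood cells, were sorted from pooled uninjured nerves (intact) and from the bridge of new tissue in the lesion 7 days after injury (injured). Strain, sex, the number of animals and the induction scheme are not given in the labels, which also spell the driver Chd5CreER. Nerves were pooled before sorting and each condition has 1 library, so no difference could be tested. All 95% intervals cover counting error only, and any difference between the pools, the sorts or the sequencing runs cannot be told apart from injury.

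The authors' table gave 818 intact and 1322 injured cells an endothelial class. Of these, 166 and 125 carried a barcode that occurs in both libraries (298 barcodes do) and were left out, which left 652 intact cells with 3253785 UMIs (median 4039 a cell) and 1197 injured cells with 16140768 UMIs (median 10949). The class names are the authors': EC_VEN, EC_CAP and EC_ART for venous, capillary and arterial cells, EC_BAR, EC_IMMAT, EC_TIP and EC_PROLIF, with a PV+ or PV- suffix that the labels do not spell out. The 10 pan-endothelial marker genes summed to 6422 CPM before and 5712 CPM after injury. Ptprc, which encodes CD45, had 0 UMIs in the cells of both libraries. Of the markers of other cells, the leukocyte list was higher in the injured cells (1.54 and 10.4 CPM, 4 and 6 of its 7 genes with a UMI). Markers of dendritic cells (32.9 and 13.6 CPM) and B cells (605 and 366 CPM) were lower. Those of other cells of the nerve were lower: fibroblast 76.5 and 50.6 CPM, pericyte and smooth muscle 961 and 240 CPM, perineurial 502 and 163 CPM and Schwann 71.3 and 39.5 CPM. The perineurial list shares Slc2a1 with the list for barrier endothelium, which stood at 4593 and 1077 CPM, so it does not mark perineurial cells alone. The part of such other cells in the differences was not tested. The cells with a shared barcode had 109 CPM of class II in the intact and 2.06 CPM in the injured library, and including them left the class II ratio at 0.0257 and gave a class I ratio of 0.695 in place of 0.706.

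MHC class II molecules show peptides from ingested and lysosomal protein to CD4 T cells. H2-Aa and H2-Ab1 encode the alpha and beta chains of I-A, H2-Eb1 encodes the beta chain of I-E, and Cd74 encodes the invariant chain that fills the groove until peptide is loaded. Ciita is the coactivator that switches these genes on, in professional antigen-presenting cells by default and in other cells, endothelium among them, after interferon gamma. Class I molecules are found on nearly all nucleated cells and show peptides from the cytosol to CD8 T cells. H2-K1 and H2-D1 encode the classical heavy chains, B2m the shared light chain, Tap1 a subunit of the peptide transporter of the endoplasmic reticulum, and Psmb8 a catalytic subunit of the immunoproteasome.

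The set of RefSeq promoters used here (GRCm38.p6) held 7 of the 10 genes and lacked Cd74, H2-Ab1 and Ciita. Of the 7, 4 are shown as examples with promoter elements for which the 2 pathways are known, which H2-D1 and Tap1 also carry. Each sequence shown is the stretch from 200 to 11 bases before the RefSeq start site. The H2-Aa stretch lies at chr17:34287834-34288023 on the minus strand, that of H2-Eb1 at chr17:34305667-34305856 on the plus strand, that of B2m at chr2:122147487-122147676 on the plus strand, and that of H2-K1 at chr17:34000358-34000547 on the minus strand. Capitals in the class II stretches mark an X1 core (GCAAC), a Y box (CTGATTGG) and, in H2-Aa only, an X2 core (TGACG) on either strand. Capitals in the class I stretches mark, in H2-K1 only, a kappa B site (GGGATTCC) and, in both, an IRF core (AANNGAAA, printed on H2-K1 as its reverse complement), an X2 core and the CCAAT core (ATTGG) that is also part of the Y box.
H2-Aa: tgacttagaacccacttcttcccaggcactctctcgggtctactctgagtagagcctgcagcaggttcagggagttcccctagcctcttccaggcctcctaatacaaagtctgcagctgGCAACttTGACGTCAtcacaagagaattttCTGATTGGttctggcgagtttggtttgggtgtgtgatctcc
H2-Eb1: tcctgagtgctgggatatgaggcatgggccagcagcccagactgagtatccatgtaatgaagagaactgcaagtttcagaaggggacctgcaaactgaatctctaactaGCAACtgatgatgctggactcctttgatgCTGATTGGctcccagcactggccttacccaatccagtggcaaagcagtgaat
B2m: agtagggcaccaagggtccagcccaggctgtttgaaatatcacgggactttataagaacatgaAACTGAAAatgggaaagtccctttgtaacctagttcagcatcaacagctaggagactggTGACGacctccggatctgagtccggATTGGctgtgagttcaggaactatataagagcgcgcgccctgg
H2-K1: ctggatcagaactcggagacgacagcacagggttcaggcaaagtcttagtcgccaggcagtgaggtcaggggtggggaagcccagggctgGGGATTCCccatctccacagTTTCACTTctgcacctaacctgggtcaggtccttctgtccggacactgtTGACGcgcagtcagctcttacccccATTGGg

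In H2-Aa the X1 core stood 81 to 77 bases and the Y box 51 to 44 bases before the start, and in H2-Eb1 they stood at 91 to 87 and 62 to 55. An X1 core followed within 60 bases by a Y box was found in 107 of 27026 mouse promoters (0.396%), and in these 2 of the 7 genes. The search covered the 250 bases before each start and took matches on either strand, also on opposite strands. The Y box alone was in 4.06% of promoters, the X1 core in 30.1%, the X2 core in 17.8%, the CCAAT core in 34.5% and the IRF core in 21.6%, counting both strands. Of the 7 genes, 4 had a Y box and 4 an X1 core, the class I genes H2-D1 and Tap1 among them in both cases. The kappa B site was in 237 promoters (0.877%), H2-K1 (110 to 103 bases before the start) and H2-D1 (170 to 163) among them. These motifs were picked after the sequences were seen, and a match is a description of the letters and not evidence of binding.

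Class II transcripts were far less abundant in injured than in intact endothelial cells. Cd74 was counted at 81.8 CPM (266 UMIs) before and 3.04 CPM (49 UMIs) after injury, which is 26.9-fold lower (19.8 to 37.3). H2-Ab1 stood at 32.9 CPM (107 UMIs) and 0.496 CPM (8 UMIs), 66.3-fold lower (32.5 to 158). The I-A alpha chain and the I-E beta chain had the same pattern, with injured counts so low that the fold is known only loosely. H2-Aa had 23.97 CPM (78 UMIs) and 0.248 CPM (4 UMIs), 96.7-fold lower (36.3 to 364). H2-Eb1 had 25.2 CPM (82 UMIs) and 0.434 CPM (7 UMIs), 58.1-fold lower (27.0 to 149). Summed, these 4 genes went from 533 UMIs, or 164 CPM, to 68 UMIs, or 4.21 CPM, a 38.9-fold difference (30.2 to 50.8). The fold was 20.03 with the classes weighted equally and 20.6 over all barcodes with or without a class. Without cells that had a UMI of any leukocyte marker but Ctss it was 70.1. That value is loose, with 85.2 CPM in 146 intact cells and 1.22 CPM, all from H2-Aa, in 125 injured cells.

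The 4 class II genes were the only members that were at least 2-fold lower in injured cells, on the log2 scale with 5 CPM added to both values, and none was 2-fold higher. Among all 8269 genes measured, 6.05% were at least 2-fold lower and 4.52% at least 2-fold higher, or 5.05% and 5.82% after scaling by TMM factors, and the median log2 ratio was 0.04, with a 10th percentile of -0.74 and a 90th of 0.69. On this scale the 4 genes lay between -3.43 (Cd74) and -2.46 (H2-Aa). Each of the 4 passed the minimum of 10 CPM only through its intact value, so their count carries no weight beyond the values themselves. Ciita, the coactivator, had 3 UMIs in intact and 0 in injured cells, all 3 in EC_VEN-PV+, too few for a ratio. The class I genes stayed between the 2-fold bounds, as the plot of each gene's ratio shows.

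**Figure D1:**
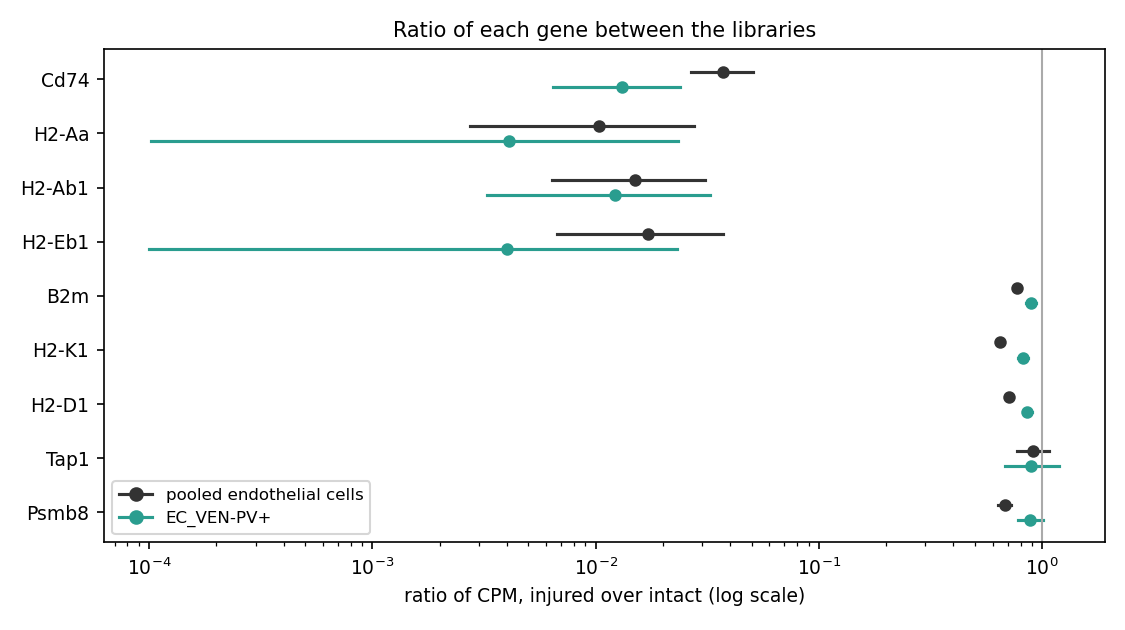
Ratio of CPM between the injured and intact libraries for each gene (log axis), in pooled endothelial cells and in EC_VEN-PV+, with points for the ratio and lines for its exact 95% counting interval. The 4 class II genes lie 26.9-fold to 96.7-fold lower in the pooled cells, while the class I genes lie between ratios of 0.648 and 0.907.

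Intact class II transcripts were concentrated in venous cells. EC_VEN-PV+ held 31.0% of the intact endothelial cells and 35.1% of their UMIs but 454 of the 533 class II UMIs (85.2%). Its class II sum was 397 CPM (362 to 436), against 151 CPM (108 to 206) in EC_VEN-PV-, 59.97 CPM (37.6 to 90.8) in EC_ART, 15.3 CPM (6.16 to 31.6) in EC_CAP-PV-, 11.5 CPM (1.39 to 41.5) in EC_CAP-PV+ and 10.2 CPM (4.41 to 20.1) in EC_BAR. EC_VEN-PV+ lay above every other class of at least 20 cells beyond the counting intervals, and both capillary classes and EC_BAR do not differ from each other. The values between rest on single cells: 19 of the 40 UMIs of EC_VEN-PV- and 14 of the 22 of EC_ART were in 1 cell. Without the highest cell of each class, chosen after seeing the data, EC_VEN-PV+ had 355 CPM (322 to 392), EC_VEN-PV- 84.6 CPM (52.4 to 129) and EC_ART 22.1 CPM (9.56 to 43.6). EC_VEN-PV- thus stayed above EC_ART without these cells, with counting intervals apart, although single cells moved the level of both. The arterial value rests on 22 UMIs in 5 of 79 cells, and those of EC_CAP-PV+ and EC_BAR on 2 and 8 UMIs.

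The venous names were checked against defining markers. The 6 venous markers (Nr2f2, Ackr1, Selp, Vwf, Aplnr and Vcam1) summed to 4446 CPM in intact EC_VEN-PV+ and 1890 CPM in EC_VEN-PV-, against 540 CPM in EC_ART and 677 CPM in EC_BAR. Intact EC_VEN-PV- also had barrier markers at 7631 CPM, more than its venous ones, and EC_VEN-PV+ had capillary markers at 14052 CPM. In injured cells the venous markers stood at 4127 CPM in EC_VEN-PV+ and 3821 CPM in EC_VEN-PV-. EC_VEN-PV+ thus had similar venous marker sums in both libraries, but its capillary markers were lower after injury (7680 CPM), and in EC_VEN-PV- the venous markers were higher and the barrier markers lower (1234 CPM).

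Within EC_VEN-PV+ all 4 genes were lower in the injured library. Cd74 was at 201 CPM in 202 intact cells (230 UMIs) and 2.63 CPM in 350 injured cells (11 UMIs), 76.6-fold lower (42.0 to 156). H2-Ab1 was at 77.9 CPM (89 UMIs) and 0.956 CPM (4 UMIs), 81.5-fold lower (30.7 to 306). The other chains came down to a single molecule in the injured class. H2-Aa had 67 UMIs and 1 UMI and H2-Eb1 68 UMIs and 1 UMI, ratios of 0.00408 (0.000102 to 0.0235) and 0.00402 (0.0001 to 0.0231). The class II sum was 97.8-fold lower (60.4 to 169), 397 against 4.06 CPM. A single injured cell held 11 of the 17 injured UMIs, and without the highest cell of each library the sum was 246-fold lower (112 to 676). Of 9 members measured in this class, 4 were at least 2-fold lower and none higher, against 4.59% and 3.96% of its 8111 genes. The 4 are the class II genes, which passed the minimum of 10 CPM only through their intact values. Their count carries no weight beyond the values themselves.

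In EC_VEN-PV- the difference was smaller, with Cd74 at 79.4 CPM (21 UMIs) in 33 intact cells and 9.05 CPM (13 UMIs) in 121 injured cells, 8.77-fold lower (4.19 to 19.1). The class II sum of this class was 13.6-fold lower (7.43 to 26.0), or 11.0-fold (5.05 to 25.2) without the highest cell of each library. Both intervals lie wholly below those of EC_VEN-PV+. EC_ART had 13 UMIs of Cd74 in 3 of 79 intact cells and 0 UMIs in 143 injured cells, 23.3-fold lower when the 0 is set at 3 counts over the class. The exact counting interval of this ratio allows as little as 16.4-fold lower. EC_CAP-PV- showed no detectable difference in the class II sum at this depth, with 7 UMIs (15.3 CPM) and 11 UMIs (12.6 CPM) and a ratio of 0.823 (0.291 to 2.51). EC_BAR, with 8 UMIs and 1 UMI, had a ratio of 0.276 (0.00622 to 2.06). Of the members measured in each class, 3 of 8 in EC_VEN-PV- were at least 2-fold lower (background 6.53% lower and 10.9% higher) and 1 of 6 in EC_ART (8.07% and 7.31%). None of 5 was in EC_CAP-PV- (9.85% and 6.19%) or in EC_BAR (7.01% and 7.31%), and none was higher in any of these classes. The members lower in EC_VEN-PV- and EC_ART were class II genes that passed the minimum of 10 CPM only through their intact values. In the class named INTERMEDIATE, which was kept out of the pooled cells, 4 UMIs in 39 intact cells stood against 0 in 80 injured cells, and 3 of 6 members measured were lower (18% and 18.7%). These 3 were H2-Aa (2 and 0 UMIs), Tap1 (3 and 2 UMIs) and Psmb8 (22 UMIs in both, 297 and 95.3 CPM), so H2-Aa and Tap1 are too few for a ratio.

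The classes found almost only after injury differed in class II. EC_PROLIF, the dividing cells, had 0 class II UMIs in 132 cells, which allows up to 2.27% of cells with a UMI and up to 1.11 CPM when 0 is set at 3 counts, although it was the deepest class (median 19198.5 UMIs). EC_IMMAT had 1 UMI in 243 cells (0.312 CPM). EC_TIP, named for the cells that lead a sprout, had 20 UMIs in 4 of 87 cells (15.3 CPM, 9.33 to 23.6), of which 16 were in a single cell. This was the highest value of the injured classes, beside 12.6 CPM in EC_CAP-PV-, 11.1 CPM in EC_VEN-PV- and 4.06 CPM in EC_VEN-PV+, and EC_TIP held 29.4% of the injured class II UMIs and 8.12% of all UMIs. Without its highest cell it had 4 UMIs (3.10 CPM). The intact library held only 4, 4 and 7 cells of EC_IMMAT, EC_TIP and EC_PROLIF, so no ratio was taken.

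**Figure D2:**
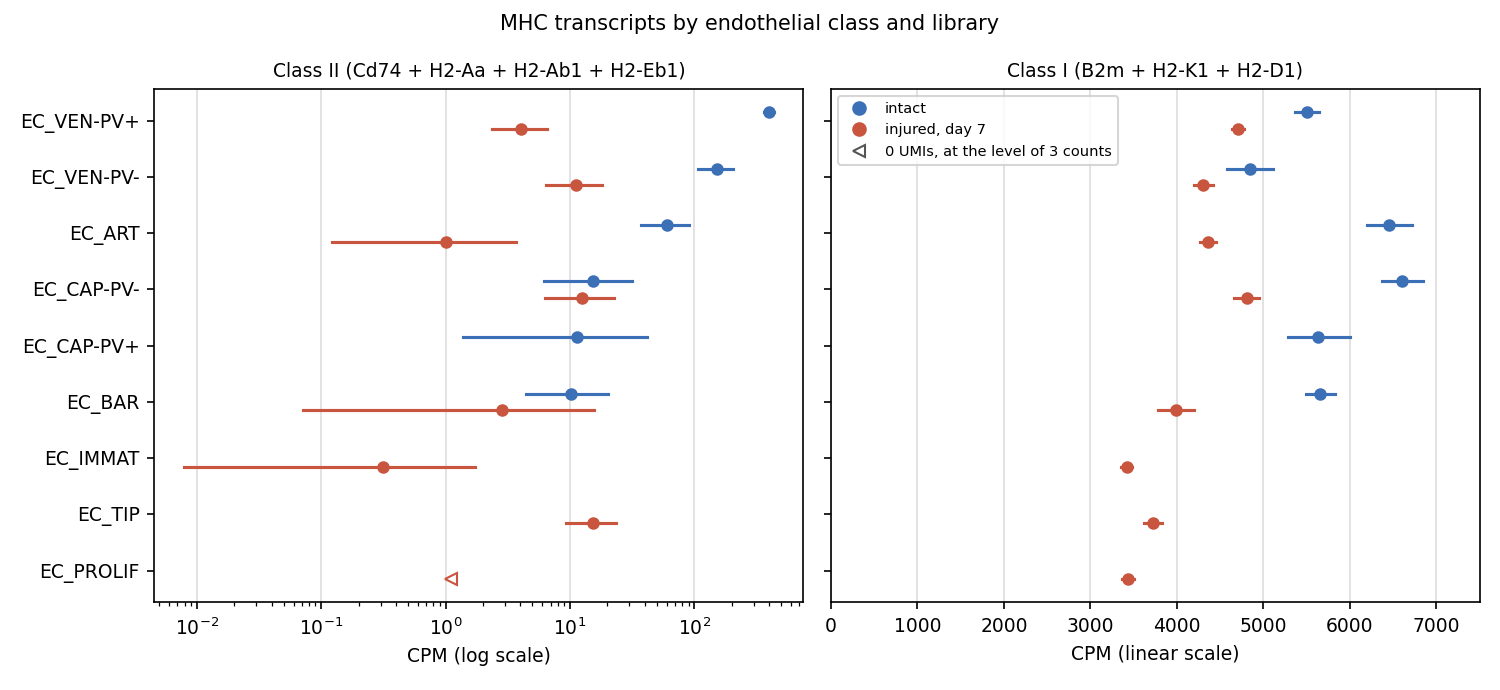
CPM of the summed class II genes (left, log axis) and the summed class I genes (right, linear axis) in each endothelial class with at least 20 cells in a library, with exact 95% counting intervals. Blue points are intact and red points injured, and the open triangle marks 0 UMIs drawn at the level of 3 counts. Intact class II is highest in EC_VEN-PV+ at 397 CPM and is 4.06 CPM after injury, while class I differs by less than 2-fold in every class drawn in both libraries.

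Class II RNA was unevenly spread over cells even within a class. In intact EC_VEN-PV+, 86 of 202 cells (42.6%, exact Clopper-Pearson interval 35.7 to 49.7) had a class II UMI, 26 cells had at least 5 and the highest cell had 50. The 3 highest of these cells held 23.6% of the class's class II UMIs. Thinning each cell to 2000 UMIs, with shallower cells left out, gave 29.8% of 191 intact cells and 0.288% of the injured cells of the class. The invariant chain and the chains it binds were found in the same cells. Of 75 intact endothelial cells with a Cd74 UMI, 72.0% also had an H2-Aa, H2-Ab1 or H2-Eb1 UMI, against 6.76% of the 577 cells with no Cd74 UMI, and 15 cells had all 4 genes. Cells with more UMIs of any kind have more chances of both, so the shares are descriptions.

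After injury 24 of 1197 cells (2.01%, 1.29 to 2.97) had a class II UMI, and 13 of the 24 had a single one. Free RNA in the droplets can give UMIs in any cell, and no profile of it was measured here. For comparison, the sorted cells without a class that carried fibroblast markers had a class II UMI in 3 of 317 intact cells (0.946%, median 5857 UMIs) and 8 of 240 injured cells (3.33%, 1.45 to 6.46, median 10571 UMIs). The injured endothelial share was thus no higher than that of these cells, and 4.21 CPM stood beside 4.49 CPM (2.45 to 7.53) in the injured fibroblast-like cells. The make-up differed, since H2-Eb1 gave 8 and Cd74 4 of the 14 UMIs in the fibroblast-like cells, against 7 and 49 of 68 in the endothelial cells, so the genes stood in different ratios to each other. The intact endothelial share of 17.5% (14.6 to 20.6) was above the intact fibroblast-like share. The injured share alone is not read as expression, and its source was not tested. Single injured cells held more, with 16 class II UMIs in an EC_TIP cell, 11 in an EC_VEN-PV+ cell and 7 in an EC_CAP-PV- cell, mostly Cd74 (13, 10 and 7 UMIs).

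**Figure D3:**
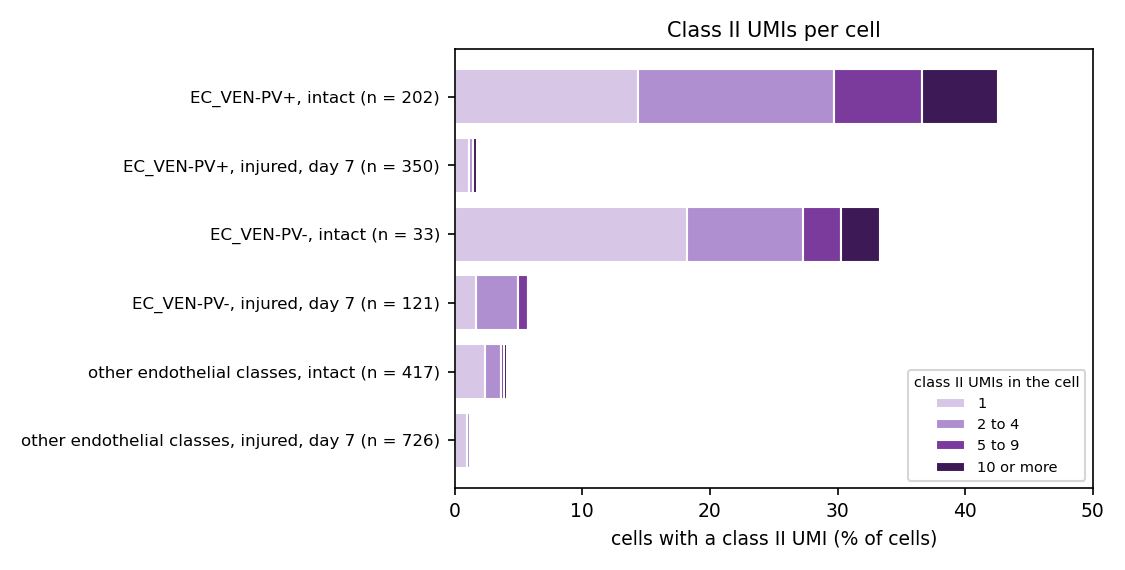
Share of cells with a class II UMI (percent of cells, stacked by the number of class II UMIs in the cell) in the venous classes and in the other endothelial classes of each library. In intact EC_VEN-PV+ 42.6% of 202 cells had a UMI and 5.94% had 10 or more, against 1.71% and 0.286% of 350 injured cells.

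Class II is the hallmark of B cells, dendritic cells and macrophages, so their markers were counted in the same cells. Of 40 leukocyte marker genes, which leave out Ctss, Ebf1, Zbtb46 and Cd68, a UMI was found in 1 of the 30 intact cells with at least 5 class II UMIs, in 3 of the 114 with any (2.63%) and in 30 of the 538 with none (5.58%). The injured cells with class II had such a UMI in 5 of 24 cells and those without in 179 of 1173 (15.3%), at a median depth of 15360 and 10882 UMIs. Over the whole lists, 4 of 7 leukocyte, 3 of 12 macrophage, 1 of 7 dendritic, 2 of 6 B cell, 0 of 7 T and NK and 2 of 5 neutrophil genes had a UMI in intact cells. In injured cells 6, 8, 3, 3, 2 and 4 of them did. Their sums were 1.54, 13.5, 32.9, 605, 0 and 0.615 CPM in intact and 10.4, 9.79, 13.6, 366, 0.248 and 0.805 CPM in injured cells. The leukocyte sum was thus higher and the dendritic and B cell sums lower in injured cells, and the other sums had overlapping intervals. The part of such cells in the class II difference was not tested. In the intact cells Cd68 made up 12.0 CPM, Zbtb46 all of the dendritic sum and Ebf1 597 CPM. Ebf1 is also a gene of perivascular and endothelial cells, and it was higher in intact than in injured cells (364 CPM). Without the cells that had a UMI of the 40 genes, the class II sum was 169 CPM in 619 intact and 4.89 CPM in 1013 injured cells.

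Intact EC_VEN-PV+ cells with class II differed from the rest of the class in venous markers. Cells were split by a class II UMI in their full counts, and markers were compared after thinning to 2000 UMIs. The 82 cells with class II had a venous sum of 5457 CPM (5106 to 5827) and the 109 cells without had 4046 CPM (3783 to 4322). Vcam1, an adhesion receptor for leukocytes, stood at 909 CPM (769 to 1067) against 463 CPM (377 to 563). Selp, the P-selectin of venules on which leukocytes roll, stood at 1476 CPM (1296 to 1674) against 986 CPM (859 to 1127). Not every venous gene was higher: Aplnr, the apelin receptor, was at 140 CPM (88.9 to 210) against 284 CPM (218 to 365), and Ackr1, a chemokine-binding receptor of venules, at 848 against 693 CPM with overlapping intervals. The class I sum was 6037 CPM (5666 to 6425) against 5459 CPM (5153 to 5778). Cells with class II were deeper before thinning, with a median of 5909 against 4628 UMIs, and deeper cells are more often positive. A split by a class II UMI left after thinning, added after seeing the data, gave 57 and 134 cells with venous sums of 6009 CPM (5567 to 6476) and 4075 CPM (3837 to 4324), and Vcam1 at 1044 and 489 CPM.

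Class I transcripts were abundant in both libraries and modestly lower after injury. H2-K1 went from 1880 CPM (6118 UMIs) to 1218 CPM (19652 UMIs), a ratio of 0.648 (0.629 to 0.666). H2-D1 went from 2234 to 1588 CPM, a ratio of 0.711 (0.693 to 0.730), and B2m from 1644 to 1262 CPM, a ratio of 0.768 (0.745 to 0.791). In the pooled cells the light chain was thus the least reduced of the 3 and the K heavy chain the most, with intervals that do not overlap. EC_ART and EC_VEN-PV+ had the same order. In EC_BAR, EC_CAP-PV- and EC_VEN-PV- H2-D1 was the least reduced instead, for example at 0.969 against 0.839 for B2m in EC_VEN-PV-. The intervals of B2m and H2-D1 overlapped in each of these classes, and also in EC_ART and EC_VEN-PV+. The 3 genes summed to 5759 CPM in intact and 4068 CPM in injured pooled cells, a ratio of 0.706 (0.695 to 0.718). Nearly every cell had a UMI of the sum, 99.8% in both libraries. H2-K1, H2-D1 and the H2-Q genes are near-identical copies that also differ between mouse strains, so reads may have been assigned to the wrong copy or lost, and the split between these genes is uncertain.

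Class I did not follow the class II order of the classes. In the intact library the sum was highest in EC_CAP-PV- (6601 CPM, 6368 to 6841) and EC_ART (6453 CPM, 6195 to 6718), which do not differ beyond counting error. Next came EC_BAR (5656 CPM), EC_CAP-PV+ (5635 CPM) and EC_VEN-PV+ (5504 CPM) with overlapping intervals, and EC_VEN-PV- was lowest (4842 CPM, 4580 to 5115). After injury EC_CAP-PV- (4805 CPM, 4660 to 4953) and EC_VEN-PV+ (4704 CPM, 4639 to 4770) were highest with overlapping intervals, then EC_ART (4360 CPM) and EC_VEN-PV- (4302 CPM), which overlap, and EC_BAR (3987 CPM, 3782 to 4201), whose interval just meets that of EC_VEN-PV-. The classes found mainly after injury came last, with EC_TIP at 3726 CPM (3622 to 3832), EC_PROLIF at 3438 CPM and EC_IMMAT at 3421 CPM, the last pair indistinguishable.

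Class I differed less between the libraries in venous cells than elsewhere. Ratios of the sum were 0.855 (0.831 to 0.879) in EC_VEN-PV+ and 0.889 (0.837 to 0.944) in EC_VEN-PV-, and 0.676 (0.646 to 0.707) in EC_ART, 0.705 (0.664 to 0.749) in EC_BAR and 0.728 (0.694 to 0.763) in EC_CAP-PV-. The venous intervals lie above the other 3, which overlap each other. In EC_VEN-PV- the heavy chain H2-D1 was at 1656 and 1604 CPM, a ratio of 0.969 (0.874 to 1.08), so no difference was detectable there. With the cells of the 5 classes that held at least 20 cells in both libraries pooled, the class I sum was 5767 CPM in intact and 4543 CPM in injured cells, and the intact class levels weighted by the injured class mix gave 5723 CPM. For class II the same 3 values were 176, 5.33 and 228 CPM. EC_IMMAT, EC_TIP and EC_PROLIF, with 243, 87 and 132 injured cells, are outside these values, so the part of the full class mix was not tested.

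Psmb8 and Tap1, which make and carry the peptides for class I, differed from each other. Psmb8 was at 322 CPM before and 219 CPM after injury, a ratio of 0.680 (0.634 to 0.729). Its ratio was 0.585 (0.483 to 0.713) in EC_ART, 0.576 (0.444 to 0.739) in EC_BAR, 0.726 (0.585 to 0.903) in EC_CAP-PV-, 0.686 (0.527 to 0.902) in EC_VEN-PV- and 0.886 (0.777 to 1.01) in EC_VEN-PV+. Tap1 was at 56.5 and 51.3 CPM, a ratio of 0.907 whose interval includes 1 (0.772 to 1.07). By class its intervals included 1 except in EC_BAR, where it was higher after injury, 121 against 66.3 CPM (43 and 52 UMIs in 36 and 156 cells), a ratio of 1.83 (1.19 to 2.79). The direction of the Tap1 value turned with the weighting, its log2 ratio being -0.13 over pooled cells and 0.29 with the classes weighted equally.

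Other genes of class II assembly did not move together. H2-DM molecules, encoded by H2-DMa and H2-DMb genes, exchange the Cd74 fragment for peptide. H2-DMa and H2-DMb1 were below the 10 CPM mean: H2-DMb1 had 39 and 2 UMIs, 96.7-fold lower (25.0 to 827), and H2-DMa 25 and 14 UMIs, 8.86-fold lower (4.43 to 18.4). Both genes are named here after their values were seen. In intact cells 33 of the 39 H2-DMb1 UMIs and 18 of the 25 H2-DMa UMIs were in EC_VEN-PV+. Lysosomal proteases that trim protein and Cd74 were higher after injury instead. Lgmn, or legumain, went from 109 to 428 CPM (3.93-fold higher, 3.53 to 4.38), Ctsl, cathepsin L, from 281 to 665 CPM (2.37-fold, 2.21 to 2.54) and Ctsb, cathepsin B, from 204 to 443 CPM (2.17-fold, 2.01 to 2.36). Ctsd, the other measured gene of the 4, had a ratio of 1.16. Ctss, the cathepsin that cuts Cd74 in professional presenting cells, had 0 and 1 UMIs. The alpha chain of I-E had no feature under the name H2-Ea, and H2-Ea-ps had 0 UMIs in both libraries.

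The genes of the factors that bind the X and Y boxes lay close to the median of all genes. All 6 measured genes of 7 lay between the 2-fold bounds, with log2 ratios from -0.34 to -0.10 and a median of -0.17, against 0.04 over all genes. Nfyb, a subunit of the Y box factor NF-Y, was at 46.7 and 42.4 CPM (ratio 0.908, 0.761 to 1.09), and Rfxap, a subunit of the X box factor RFX, at 41.2 and 35.8 CPM (ratio 0.870, 0.719 to 1.06). Rfx5, another RFX subunit, was below the minimum, with 25 and 100 UMIs.

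The lists of the wider class I pathway differed in how many of their genes passed 2-fold. Of 7 measured other class I chains, 3 were at least 2-fold lower and 1 at least 2-fold higher, against 6.05% and 4.52% of all genes, with a median log2 ratio of -0.82. H2-T23, the Qa-1 chain read by NK cells and some T cells, went from 482 CPM (1569 UMIs) to 102 CPM (1642 UMIs), 4.74-fold lower (4.42 to 5.08), and in EC_VEN-PV+ from 583 to 179 CPM. H2-Q4 was 2.43-fold lower (2.26 to 2.61) and H2-Q6, named after its value was seen, 2.41-fold lower, both subject to the shared reads named above. Cd1d1, which presents lipids to NKT cells, was 7.46-fold higher (4.01 to 15.7), from 10 to 370 UMIs.

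Of 8 peptide-loading genes, 1 was at least 2-fold lower and none higher, beside 6.05% and 4.52% of all genes, with 5 log2 ratios below 0 and a median of -0.60. Tap2, the partner of Tap1, went from 142 to 66.7 CPM, 2.13-fold lower (1.91 to 2.38), unlike Tap1 itself, and Tapbp, or tapasin, from 212 to 111 CPM (1.91-fold, 1.74 to 2.08). Nlrc5, the class I counterpart of Ciita, was at 16.3 CPM (53 UMIs) and 8.86 CPM (143 UMIs), 1.84-fold lower (1.32 to 2.54). Calr, calreticulin, a chaperone of many glycoproteins, was at 319 and 551 CPM (1.73-fold higher, 1.62 to 1.84). Tapbp, Nlrc5 and Calr are named here after their values were seen.

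Of the immunoproteasome list 1 of 4 genes was at least 2-fold lower, of the constitutive proteasome list none of 16 passed 2-fold, and the difference between the lists was not tested. All 4 measured genes of the immunoproteasome and its activator had log2 ratios below 0 (median -0.56), and Psmb9, the neighbour of Tap1 and partner of Psmb8, was 2.13-fold lower (1.92 to 2.37), from 158 to 73.9 CPM. All 16 constitutive proteasome genes had ratios above 0, from 0.13 to 0.80 with a median of 0.49. With TMM factors the median of all genes moved from 0.04 to 0.14, a shift that applies to every gene alike. Psmb5, which Psmb8 replaces in the immunoproteasome, was at 113 CPM before and 174 CPM after injury, a ratio of 1.54 (1.38 to 1.72).

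Interferon gamma genes, which drive both pathways in endothelium, were mixed. Of 10 measured genes, 2 were at least 2-fold lower and none higher, beside 6.05% and 4.52% of all genes, and the median was -0.22. Socs1, a feedback inhibitor induced by the cytokine, went from 39.0 CPM (127 UMIs) to 7.74 CPM (125 UMIs), 5.04-fold lower (3.91 to 6.50), and Irf1, a transcription factor that binds the IRF core, from 348 to 145 CPM, 2.40-fold lower (2.24 to 2.58). The receptor genes did not follow, with Ifngr1 at 165 and 151 CPM (ratio 0.914, 0.833 to 1.01) and Ifngr2 higher (1.66-fold, 1.31 to 2.14).

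Naive T cells need costimulation besides the MHC signal. Cd80 and Cd86, the ligands of CD28, had 0 UMIs in both libraries, and 3 of the 12 genes of this list present in the annotation were measured. Cd274, or PD-L1, which restrains T cells, went from 36.6 CPM (119 UMIs) to 3.04 CPM (49 UMIs), 12.0-fold lower (8.57 to 17.2). Cd276, or B7-H3, had 0 UMIs in intact and 810 UMIs (50.2 CPM) in injured cells, 54.4-fold higher when the 0 is set at 3 counts over the cells. The exact counting interval of this ratio allows as little as 44.2-fold higher. Icam1, the adhesion ligand of LFA-1, was 1.44-fold higher (1.35 to 1.55).

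**Figure D4:**
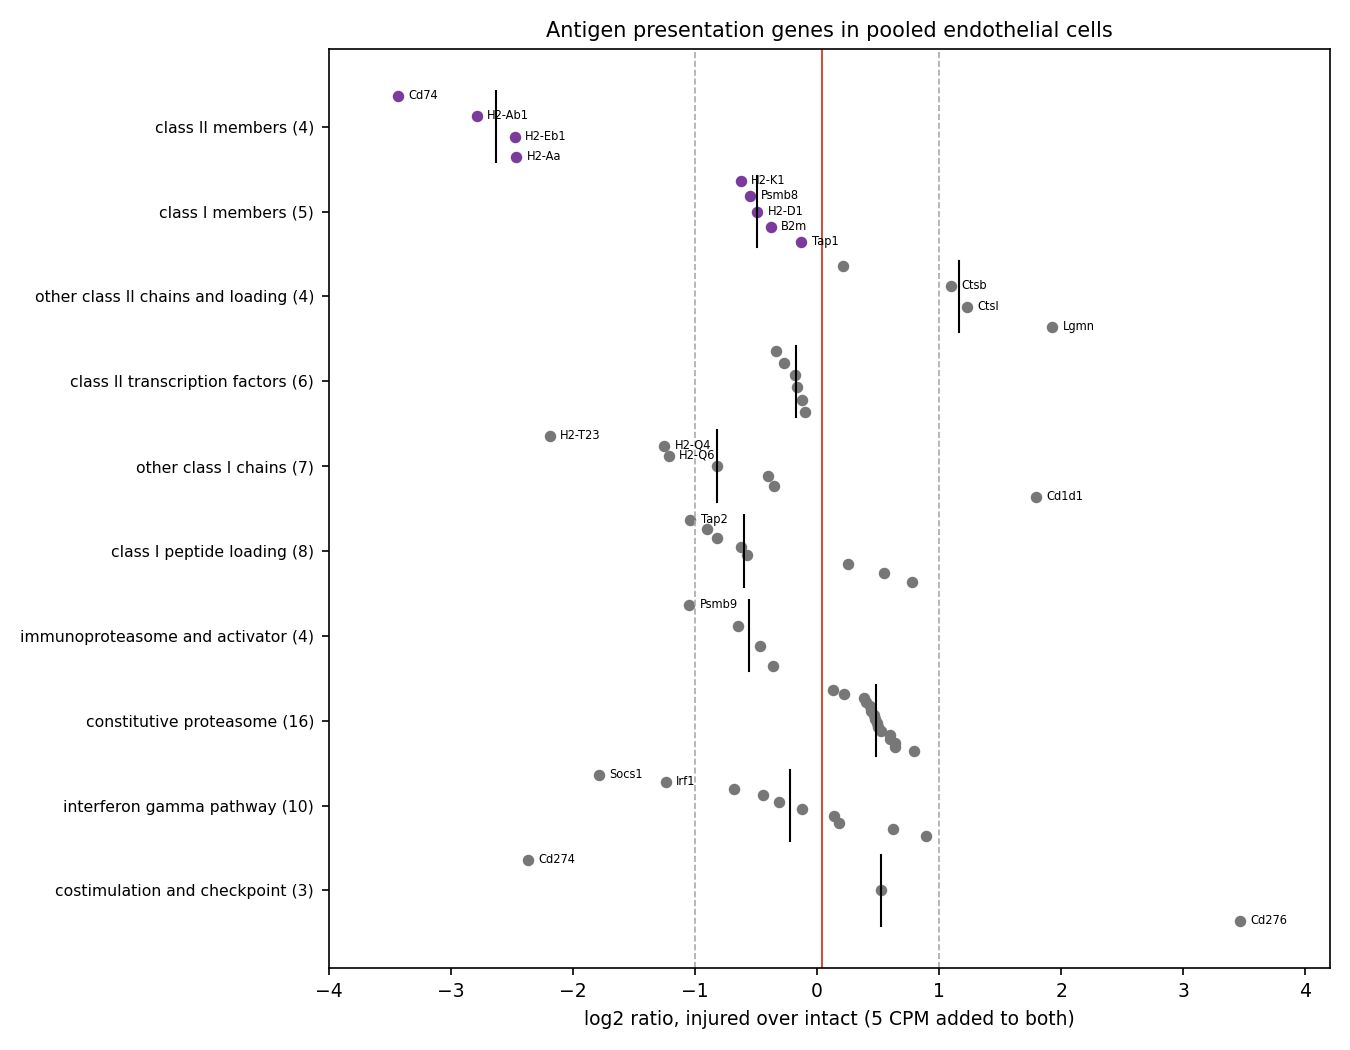
Log2 ratio of CPM (injured over intact, 5 CPM added to both) of each measured antigen presentation gene in pooled endothelial cells, by list, with the number of genes in brackets. Black bars are list medians, the red line is the median of all 8269 genes (0.04) and dashed lines are 2-fold. The 4 class II genes lie between -3.43 and -2.46, and the list medians are -0.56 for the immunoproteasome and 0.49 for the constitutive proteasome.

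Apart from Cd74, Ciita and B2m, the genes lie in the MHC of chromosome 17. In GRCm38 they run from H2-K1 (chr17:33996017-34000347) over Tap1 (chr17:34187553-34197225), Psmb8 (chr17:34197721-34201454), H2-Ab1 (chr17:34257689-34269419), H2-Aa (chr17:34282744-34287823) and H2-Eb1 (chr17:34305867-34316674) to H2-D1 (chr17:35262730-35267499), while Ciita lies at chr16:10480059-10528418 and B2m at chr2:122147686-122153083. UMIs were counted over whole genes, so no value belongs to an exon or a UTR. From H2-K1 to H2-D1 (GRCm38, chr17:33996017-35267499) 43 genes were measured, 7 of them members. Among the 36 others, 4 were at least 2-fold lower and 1 at least 2-fold higher, beside 6.05% and 4.52% of all genes measured, and their median log2 ratio was 0.13, near that of all genes. The 4 were Psmb9, Tap2, Hspa1a and Hspa1b, the last pair encoding inducible heat shock proteins, and the 1 was 1110038B12Rik, all but the first pair named after their values were seen. Notch4, an endothelial receptor gene in the same region, was at 47.0 and 44.5 CPM.

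Across 16 profiles of a class in a library with at least 20 cells, the genes most like the class II sum in log2 CPM included Nek7 (Pearson r 0.84), Cyp4b1 (0.82), Gaa (0.81) and Pfkfb3 (0.78), out of 5795 ranked. Cyp4b1, a cytochrome P450, had 184 CPM in intact and 29.4 CPM in injured EC_VEN-PV+. Those most like the class I sum included Rnf220 (0.94), Akap2 (0.93), Tor1aip1 (0.90) and Ube2l6 (0.89). Rnf220, a ubiquitin ligase gene, had 39.0 CPM in pooled intact and 26.7 CPM in injured cells. Profiles of 1 library share its depth and handling, so these correlations are descriptions.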

How the data were processed

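The matrices deposited by the authors hold whole-number counts of UMIs per gene and barcode, without normalization. Cell Ranger 3.0.2 wrote them, per the file headers. Per the submitters' processing notes, the tools also include Seurat 4.0.1 and Cell Ranger 6.1.2, with mm10 and GRCm38 as builds. The annotation release, the filter on cells and any doublet removal are not given in the sources used here, and no doublet caller was run. Classes come from the authors' deposited cell table, joined by library and barcode. The 298 barcodes found in both libraries were left out.

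For each gene, UMIs of the cells of a class in a library were summed and scaled to CPM, with an exact Poisson 95% interval. Shares carry exact Clopper-Pearson intervals, and ratios of CPM exact conditional binomial intervals. A value of 0 was set at 3 counts for bounds. For log2 ratios, 5 CPM was added to each library's value. Genes whose mean CPM over the libraries was under 10 were not counted as measured. Thinning drew 2000 UMIs per cell without replacement (seed 1). A barcode without a class was fibroblast-like where it had 1000 UMIs or more, UMIs of 4 or more fibroblast markers, and fibroblast UMIs exceeding the pan-endothelial ones. With 1 library per condition nothing was tested.

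Named genes were the 10 members, up to 2 genes per list and direction that were at least 2-fold different with a mean of 10 CPM and 30 UMIs in the higher library, and the 5 most like each sum. Some genes that this rule or a list holds are not reported here. Other names are marked or illustrate a list. The members and lists were chosen with earlier results of these data known. Motifs were searched in RefSeq promoters, and positions come from GENCODE for GRCm38, which had 53274 of the 53380 feature IDs. The interval and fold calculation was checked on simulated counts. Python 3.11.15, numpy 2.4.6, scipy 1.17.1, pandas 2.3.3 and edgeR 4.0.16 (TMM factors only) were used. The alternatives are given in the closing section.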

Additional observations from a re-analysis of the deposited data

Results flagged for a closer look

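Cd74 went in opposite directions in EC_CAP-PV- and in the venous classes. In EC_CAP-PV- it had 1 UMI in 126 intact cells and 9 UMIs in 2 of 72 injured cells, 7 of them in a single cell, a ratio of 4.72 (0.653 to 207), against 0.114 in EC_VEN-PV- and 0.0131 in EC_VEN-PV+. The difference was not tested, and the EC_CAP-PV- interval includes 1.

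Class I RNA was higher after injury in sorted cells outside the endothelial classes, which the comparisons above did not use for class I. In fibroblast-like cells without a class the sum was 883 CPM (842 to 925) in 317 intact and 1085 CPM (1049 to 1122) in 240 injured cells. Psmb8 had 4 and 175 UMIs there, a ratio of 27.8 (10.7 to 103), Tap1 17 and 91 UMIs, a ratio of 3.40 (2.01 to 6.09), and H2-K1 a ratio of 1.75 (1.51 to 2.05), while B2m had a ratio of 1.06 (0.981 to 1.15). The cells so marked were unlike in the libraries, with perineurial markers at 5229 and 1271 CPM and dividing markers at 1.01 and 483 CPM, and the part of this in the class I difference was not tested. In the other cells without a class the sum was 2287 CPM (2191 to 2386) in 242 intact and 2757 CPM (2662 to 2855) in 143 injured cells.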

How the results depend on the processing

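The injured over intact ratio of the class II sum was 0.0257, and it stayed within its counting interval in 10 of 13 alternatives. It was 0.0499 with classes weighted equally, 0.0485 over all barcodes with or without a class, and 0.0143 without cells that had a UMI of any leukocyte marker. These markers included Ebf1, Zbtb46 and Cd68 but not Ctss, and 146 and 125 cells were left. In the last 2 settings 1 member, not 4, was counted as at least 2-fold lower, and with classes weighted equally 3 were. Of the last 2 settings, the first adds the cells without a class and the second keeps few cells. The class II genes no longer counted had fallen under the mean of 10 CPM. Over all alternatives the log2 ratios of H2-Aa, H2-Ab1 and H2-Eb1 were at most -1.63, -2.01 and -1.69. The class I sum, at 0.706, has a very narrow interval and left it in 9 of 13 alternatives without passing 1: 0.695 with shared barcodes included, 0.689 without only their shallower cells, 0.694 under 5% mitochondrial UMIs, 0.720 after thinning, 0.763 with classes weighted equally, 0.765 with TMM factors, 0.685 with median-of-ratios size factors, 0.727 without EC_PROLIF and 0.959 over all barcodes. Over all barcodes the log2 ratio of Psmb8 turned from -0.55 to 0.026. No member was at least 2-fold higher in any of the 15 alternatives for that count. With 1 CPM added in place of 5, the log2 ratios of the 4 class II genes lay between -4.50 (H2-Ab1) and -4.19 (H2-Eb1). Leaving out cells with leukocyte markers but not counting Ebf1, Zbtb46 and Cd68 was chosen after seeing the data and gave 0.0290 and 0.716. Leaving out a replicate was not possible with 1 library per condition. No paired analysis was possible because the conditions share no replicate and nothing was tested. Low counts limit the injured class II values although the injured cells were the deeper ones. There were 68 UMIs, whose share of cells is no higher than in fibroblast-like cells. Ciita cannot be measured at 3 and 0 UMIs.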
